A study of Homo sapiens with 8 samples.

Results

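The DNA replication and mitosis genes are 44 genes whose transcripts rise and fall with the division cycle, here used as a readout of proliferation. They were chosen by gene name among the gene probes of a whole-transcriptome array, and all 44 of them were found among the 43317 gene names on it. By role, 12 act in DNA replication, 5 in entry from G1 into S phase and 27 in G2 and mitosis. SAS is a human cell line from a squamous carcinoma of the tongue, which the study's text calls SAS/GFP in these experiments because the cells carry a GFP vector. Cells of this 1 line made up 4 groups, each given 25 nM of small RNA, which was a mimic of miR-629-3p in one, of miR-210-3p in another and of miR-874-3p in a further one, or else a negative control RNA (NC). No group was left without transfection. Total RNA was taken 48 h later according to the labels, while the study's text gives a shorter time. Each group was represented by 2 arrays, 8 in all, and nothing in the labels says whether the 2 came from separate cultures, so the p-values below measure the spread between these arrays, which may be technical.

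A dividing cell copies its DNA in S phase and separates the copies in mitosis. Origins of replication are licensed in G1, when CDC6 and CDT1 load the ring-shaped MCM helicase onto DNA. E2F transcription factors, released when cyclin-dependent kinases act on the retinoblastoma protein, switch on genes for licensing, for nucleotide supply and for the replication fork. Genes of G2 and mitosis come on later and are held off in resting cells by a repressor complex (DREAM) that binds the cell cycle genes homology region (CHR) of their promoters. The summed transcript level of such genes is therefore often read as the share of cells in cycle. In RNA from a whole culture, however, fewer cells in a phase and less RNA per cell in that phase cannot be told apart.

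The mature sequences of the 3 miRNAs are shown first because they are the agents compared. They are the RefSeq sequences of GRCh38.p14, from 5′ to 3′, with the seed (bases 2 to 8, which pair with target transcripts) in capitals. No seed was shared between the 3 miRNAs. The genomic positions all lay on the minus strand, with miR-629-3p at chr15:70079387-70079408, miR-210-3p at chr11:568112-568133 and miR-874-3p at chr5:137647582-137647603.
miR-629-3p: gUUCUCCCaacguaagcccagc
miR-210-3p: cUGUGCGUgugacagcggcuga
miR-874-3p: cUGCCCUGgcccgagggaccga

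The promoters of 4 members are shown because these genes carry the main differences described below and represent the 3 roles. MCM2 is a replication gene, E2F2 belongs to S phase entry, and CENPA and KIF20A belong to mitosis. Each sequence runs 5′ to 3′ on the strand of the gene, from 250 bases before to 50 bases after the annotated start in RefSeq (GRCh38.p14). Capitals mark matches on either strand to the E2F motif (TTCCCGC, or as other forms TTGGCGC and also TTCGCGC), the CHR (TTTGAA, or in its other form TTTAAA) or the CCAAT box (CCAAT). In MCM2 the run of capitals holds 1 E2F match on each strand, which overlap.
MCM2 promoter, chr3:127598161-127598460, plus strand: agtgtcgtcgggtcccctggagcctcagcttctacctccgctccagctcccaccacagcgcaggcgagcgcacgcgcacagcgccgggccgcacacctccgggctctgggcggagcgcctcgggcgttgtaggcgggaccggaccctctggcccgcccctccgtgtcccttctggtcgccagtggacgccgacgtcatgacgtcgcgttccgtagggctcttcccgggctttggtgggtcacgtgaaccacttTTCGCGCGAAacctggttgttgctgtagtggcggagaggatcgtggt
E2F2 promoter, chr1:23531184-23531483, minus strand: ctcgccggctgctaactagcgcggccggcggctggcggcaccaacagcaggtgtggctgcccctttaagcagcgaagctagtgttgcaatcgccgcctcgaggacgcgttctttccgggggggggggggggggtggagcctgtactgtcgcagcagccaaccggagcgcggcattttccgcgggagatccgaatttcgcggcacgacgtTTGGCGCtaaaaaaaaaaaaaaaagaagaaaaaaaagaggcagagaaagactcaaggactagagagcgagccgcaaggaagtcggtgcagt
CENPA promoter, chr2:26785806-26786105, plus strand: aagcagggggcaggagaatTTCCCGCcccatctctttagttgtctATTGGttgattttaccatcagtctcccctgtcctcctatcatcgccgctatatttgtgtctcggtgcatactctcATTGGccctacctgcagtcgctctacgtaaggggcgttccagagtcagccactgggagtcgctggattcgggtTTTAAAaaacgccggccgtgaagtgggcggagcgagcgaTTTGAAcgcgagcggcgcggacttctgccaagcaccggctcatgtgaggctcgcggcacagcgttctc
KIF20A promoter, chr5:138178862-138179161, plus strand: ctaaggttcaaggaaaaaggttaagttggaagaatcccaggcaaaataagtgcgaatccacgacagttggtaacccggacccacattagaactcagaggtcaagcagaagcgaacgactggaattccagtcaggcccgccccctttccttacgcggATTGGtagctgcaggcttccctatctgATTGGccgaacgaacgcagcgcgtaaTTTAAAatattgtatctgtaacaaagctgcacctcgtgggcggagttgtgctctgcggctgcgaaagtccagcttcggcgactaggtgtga

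Across the members, the E2F motif and the CHR differed between the roles, while the CCAAT box was found at similar shares in all 3. Promoters of 35 of the 44 members were matched by symbol. The E2F motif was found in 9 of 10 replication promoters and in 3 of 3 S phase entry promoters, against 7 of 22 promoters of the G2 and mitosis genes and 11.2% of all 27305 promoters of this length. The CHR was found in 17 of 22 promoters of the G2 and mitosis genes, in 2 of 10 replication promoters and in 0 of 3 S phase entry promoters, against 24.3% of all promoters. The CCAAT box was found in 17 of 22, 7 of 10 and 2 of 3 promoters, respectively, against 35.7% of all. Matches to different motifs overlapped in 2 member promoters, those of MCM7 and MKI67. Such a match is a description of the letters in this window and not a site of binding.

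**Figure D1:**
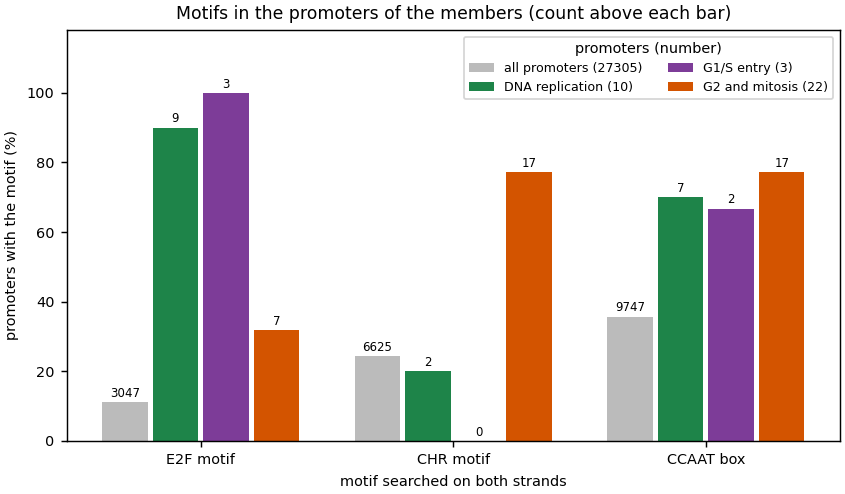
Share of promoters (vertical axis, %) that held the E2F motif, the CHR or the CCAAT box on either strand, for all 27305 promoters (grey) and for the promoters of the members by role, with the number of promoters above each bar. The E2F motif was found in 9 of 10 replication promoters and the CHR in 17 of 22 promoters of the G2 and mitosis genes.

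Levels are given as log2 of the background-subtracted signal relative to the 75th percentile of the same array, so that 0 is the level of a fairly bright probe and a difference of 1 is 2-fold. The 44 members had 55 probes that passed the filter on detection, which asked for both arrays of some group. All 55 were well above background on all 8 arrays, and no spot was saturated. Member probes that failed the filter were not counted. The arrays of miR-629-3p filled row 1 of the slide together with those of miR-210-3p, and the NC arrays filled row 2 with those of miR-874-3p. Over all 58201 gene probes, 46.5% to 49.8% were well above background in row 1 and 41.8% to 46.3% in row 2. For a mimic of row 1 against NC or against miR-874-3p, the row and the mimic therefore cannot be told apart. Comparisons within a row are miR-874-3p against NC and miR-629-3p against miR-210-3p, but these groups differed in slide column. The arrays of miR-629-3p and miR-874-3p filled columns 1 and 2, and those of miR-210-3p and NC columns 3 and 4. Within a row, the column and the mimic therefore cannot be told apart either. The cells were checked against markers of their type, and 8 of 8 squamous epithelial markers were well above background on all 8 arrays, while 0 of 5 fibroblast markers were and 4 of the 5 were above background on no array. Of other cell types, PTPRC and CD14 (leukocytes) and CDH5 and VWF (endothelium) had a probe above background on all 8 arrays, and their part in the results was not tested. A gene is called here at an adjusted p under 0.05 (limma, Benjamini-Hochberg over all 21285 genes tested).

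As a group, the members lay lower than NC after miR-629-3p, lower also after miR-874-3p, and slightly higher after miR-210-3p. With miR-629-3p, the median over the 44 members of the level minus the NC mean was -0.28 on the first array and -0.23 on the second. It was -0.18 and -0.24 with miR-874-3p. The values of miR-210-3p were 0.10 and 0.08, and those of the NC arrays themselves -0.03 and 0.03. Every miR-629-3p or miR-874-3p array thus lay below both NC arrays and every miR-210-3p array above them. The arrays below NC were those of slide columns 1 and 2, and the column cannot be told apart from these mimics. Over all genes tested the same medians lay between -0.02 and 0.06 on the 8 arrays. Replicate arrays differed for a member by a median of 0.06 to 0.12 in the 4 groups, and at most by 0.68, for CDC25B with miR-874-3p.

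**Figure D2:**
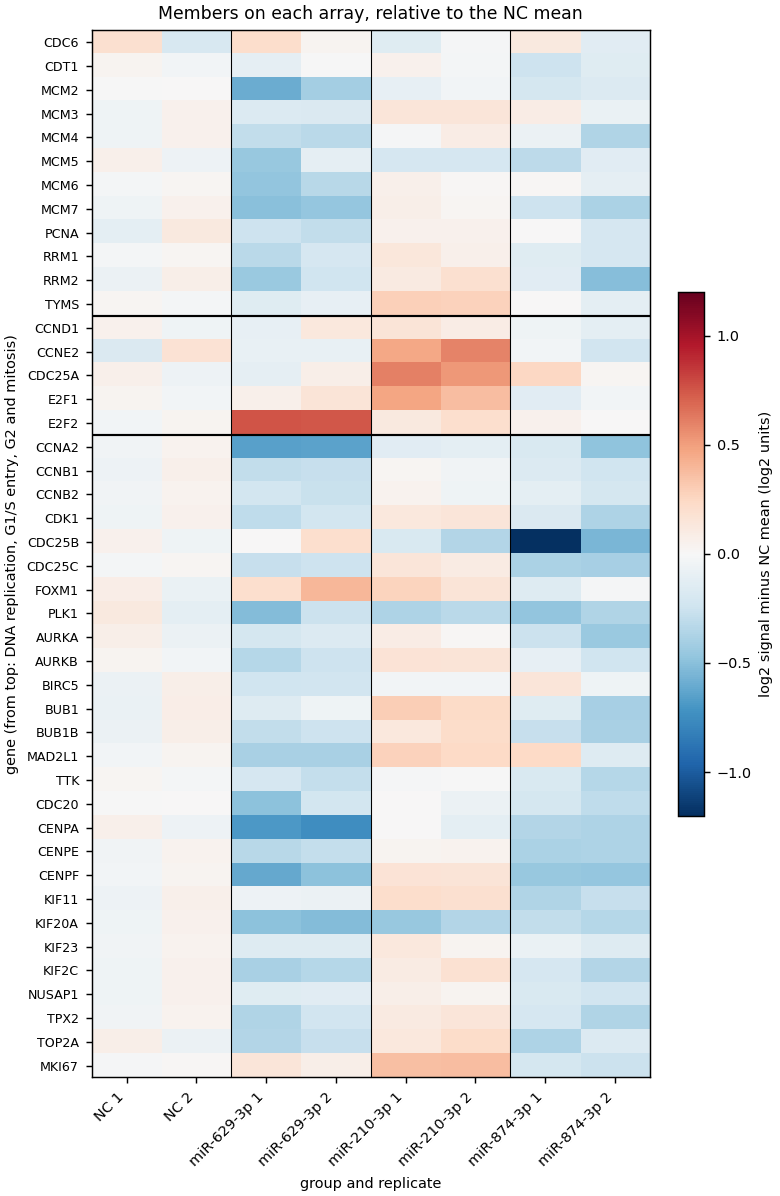
Each of the 44 members (rows, by role from the top: DNA replication, S phase entry, G2 and mitosis) on each of the 8 arrays (columns), as log2 signal minus the mean of the NC arrays, blue for lower and red for higher. Most rows are blue on both miR-629-3p arrays and on both miR-874-3p arrays, where the median of the members was -0.28 and -0.23, and -0.18 and -0.24, respectively.

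The roles did not lie alike. For the replication genes the median was -0.31 and -0.22 after miR-629-3p, close to NC after miR-210-3p (0.06 and 0.04), and -0.10 and -0.16 after miR-874-3p. The median of the 5 genes of S phase entry was -0.09 and 0.13 with miR-629-3p, which straddled the NC arrays (0.03 and -0.03), while it was higher with miR-210-3p (0.47 and 0.37). It was -0.04 on both arrays of miR-874-3p. The median of the G2 and mitosis genes was -0.30 and -0.25 after miR-629-3p and -0.20 and -0.34 after miR-874-3p, with miR-210-3p again near NC at 0.10 and 0.04. Among the members, the higher level with miR-210-3p was thus mainly one of the 5 S phase entry genes. The lower levels with the other mimics were those of replication and of mitosis. These medians are descriptions of the lists, with no test.

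**Figure D3:**
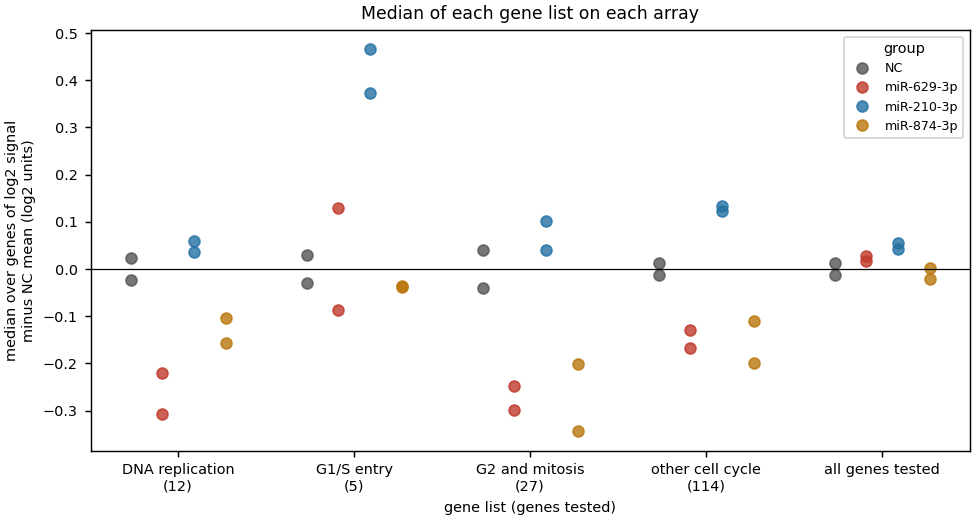
Median over the genes of each list of the log2 signal minus the NC mean (vertical axis), with 1 point for each array and colours for the groups. The replication genes and the G2 and mitosis genes lay below NC on all miR-629-3p and miR-874-3p arrays, the S phase entry genes lay at 0.47 and 0.37 with miR-210-3p, and the median of all 21285 genes stayed between -0.02 and 0.06.

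The first question was how far these genes differed between cells given miR-629-3p and NC. Of the 44 members, 11 were called (25.0%, against 16.8% of all genes tested), of which 10 were lower (against 7.47% of all genes) and 1 was higher (against 9.28%). The lower genes were 3 subunits of the MCM helicase and 7 genes of G2 and mitosis, and the higher gene was E2F2. The fitted difference was below 0 in 37 members (against 46.8% of all genes), and in 33 members both miR-629-3p arrays lay below both NC arrays (against 30.5% of all genes). The median difference was -0.26, against 0.02 over all genes tested. No member differed by 2-fold at an unadjusted p under 0.05 (against 5.27% of all genes). With an array of miR-629-3p or NC left out of the fit, most member calls were lost, and some without an array of miR-210-3p. Fewer of all genes were called in these fits as well. The median of the members stayed between -0.28 and -0.23 with any 1 array left out.

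Among the replication genes, 3 of 12 were called, all of them lower (against 7.47% of all genes). All 3 were parts of the MCM helicase, the motor that unwinds DNA at the fork. MCM2 was at 5.22 and 5.23 with NC and at 4.63 and 4.81 with miR-629-3p, a log2 difference of -0.50 ± 0.08 (SE, n = 2 arrays a group; adjusted p = 0.0180). MCM7 was at 8.55 and 8.66 with NC and at 8.10 and 8.14 with miR-629-3p (-0.49 ± 0.08, adjusted p = 0.0173). The third, MCM6, was at 5.17 and 5.23 with NC and at 4.73 and 4.86 with miR-629-3p (-0.40 ± 0.08, adjusted p = 0.0304). In each of these genes the groups were well apart, and the replicates differed by less than the groups. The other helicase subunits did not pass, with differences of -0.31 for MCM4, -0.28 for MCM5 and -0.17 for MCM3. The genes that supply nucleotides did not pass either, at -0.34 for RRM2 and -0.26 for RRM1, the subunits of ribonucleotide reductase, and -0.12 for TYMS, which makes thymidylate. The sliding clamp PCNA was at -0.27 and CDT1 at -0.06. The licensing factor CDC6, at 0.12, was the sole replication gene fitted above 0, and its arrays overlapped with NC (-0.57 and -0.74 against -0.59 and -0.97).

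Among the genes of S phase entry, 1 of 5 was called, and it was higher (against 9.28% of all genes). E2F2, an activator of the E2F family, was at 2.65 and 2.71 with NC and at 3.44 and 3.43 with miR-629-3p, a difference of 0.75 ± 0.07 (1.68-fold higher, adjusted p = 0.00547). Both miR-629-3p arrays lay above the other 6 arrays, where E2F2 ranged from 2.65 to 2.88. E2F1, another activator, was at 2.74 and 2.84 with miR-629-3p and at 2.71 and 2.65 with NC (0.11 ± 0.08, adjusted p = 0.405). CCNE2 (cyclin E2) was at -0.09, CCND1 (cyclin D1) at 0.02 and CDC25A, a phosphatase that activates the kinases of S phase, at -0.02, and none of these passed.

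Among the G2 and mitosis genes, 7 of 27 were called and all 7 were lower (against 7.47% of all genes). CENPA, the histone H3 variant that marks the centromere, was at 2.51 and 2.39 with NC and at 1.76 and 1.70 with miR-629-3p. Its difference of -0.71 ± 0.08 (1.64-fold lower, adjusted p = 0.00795) was the largest fall among the 44 members. CCNA2 (cyclin A2, which acts in S phase and G2) was at 2.72 and 2.81 with NC and at 2.11 and 2.13 with miR-629-3p (-0.65 ± 0.11, adjusted p = 0.0187). In both genes the miR-629-3p arrays were the lowest of the 8. CENPF, a protein of the kinetochore, where spindle fibres attach, was at 6.70 and 6.76 with NC and at 6.11 and 6.23 with miR-629-3p (-0.56 ± 0.07, adjusted p = 0.0111). CENPE, a kinesin motor of the kinetochore, was at 2.98 and 3.07 with NC and at 2.69 and 2.74 with miR-629-3p (-0.31 ± 0.07, adjusted p = 0.0334). A pair of other kinesins fell as well, with no overlap between the groups. KIF20A, needed for cytokinesis, was at 3.38 and 3.49 with NC and at 2.94 and 2.91 with miR-629-3p (-0.51 ± 0.08, adjusted p = 0.0147). KIF2C, which takes down misattached microtubules, was at 5.75 and 5.86 with NC and at 5.42 and 5.47 with miR-629-3p (-0.37 ± 0.09, adjusted p = 0.0431). CDC25C, the phosphatase that activates CDK1 at mitotic entry, was at 2.25 and 2.29 with NC and at 1.99 and 2.02 with miR-629-3p. Its difference of -0.26 ± 0.06 (adjusted p = 0.0474) was the smallest that passed.

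The other 20 genes of this role did not pass, and 17 of them were fitted below 0 (against 46.8% of all genes). They included the mitotic kinase CDK1 (-0.26), its partners CCNB1 and CCNB2 (-0.29 and -0.24), the kinases PLK1, AURKA and AURKB (-0.39, -0.19 and -0.30), and the spindle checkpoint genes MAD2L1, BUB1B, TTK and BUB1 (-0.39, -0.27, -0.24 and -0.11). CDC20, which the checkpoint restrains, was at -0.36, and TOP2A, which untangles DNA, was at -0.32. FOXM1, a transcription factor for G2 and mitosis genes, was the highest at 0.30 (4.40 and 4.59 with miR-629-3p, 4.27 and 4.11 with NC, adjusted p = 0.117). MKI67, the gene of the Ki-67 protein used to score proliferation, was at 0.11 (3.84 and 3.76 with miR-629-3p, 3.67 and 3.71 with NC, adjusted p = 0.320). CDC25B was at 0.10, and the remaining members lay between -0.30 and -0.07. On both miR-629-3p arrays MKI67 and FOXM1 lay above both NC arrays, on the other side from the mitosis genes called lower.

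**Figure D4:**
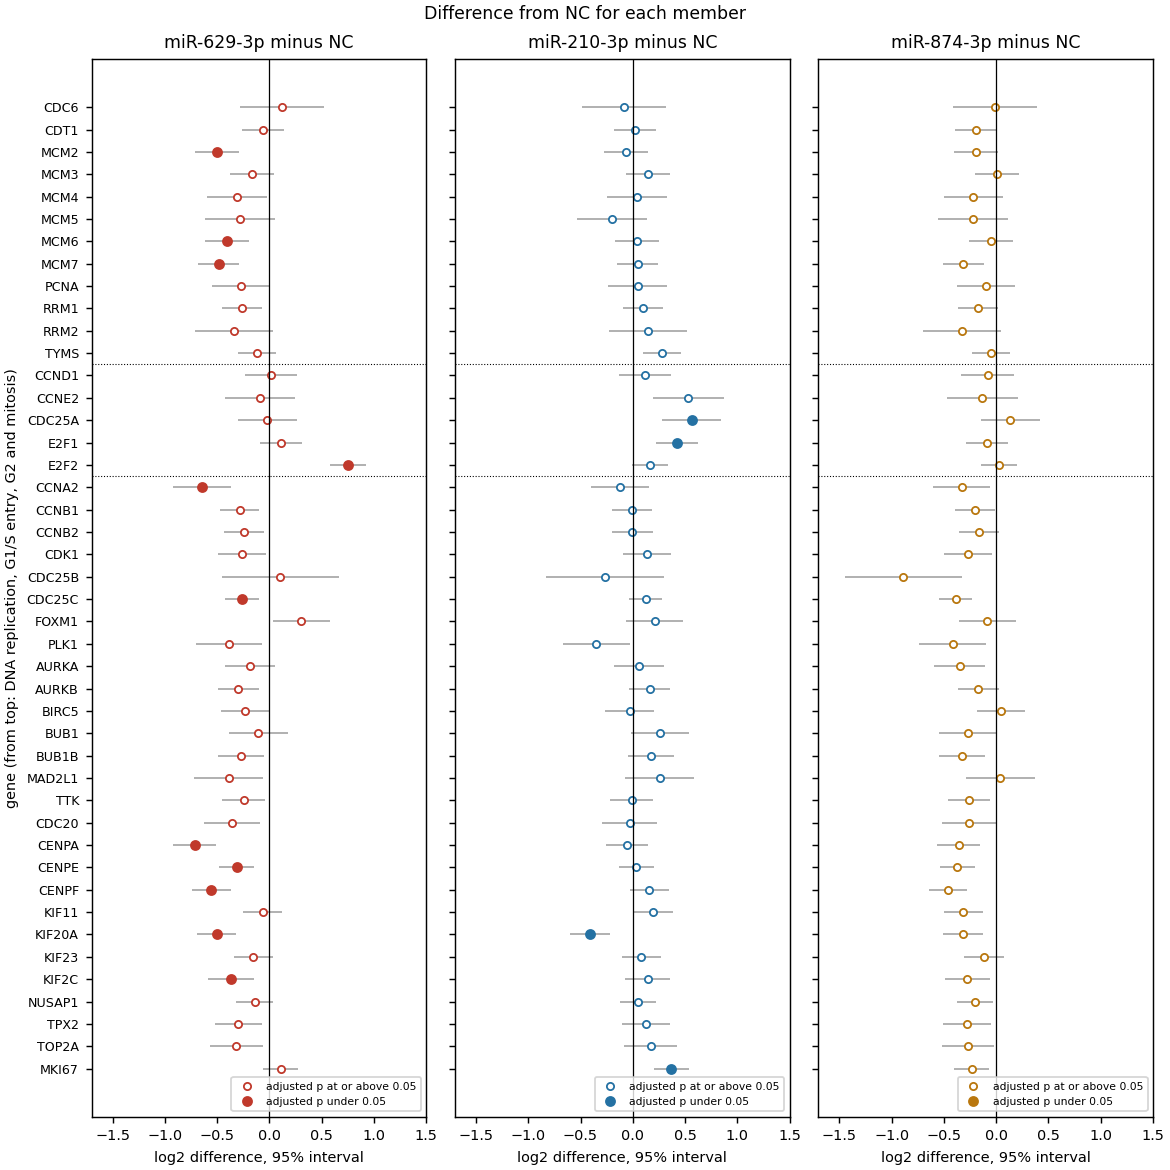
Fitted log2 difference from NC of each of the 44 members for each mimic, with its 95% interval, filled where the adjusted p was under 0.05. For miR-629-3p 10 members were called lower and E2F2 higher, for miR-210-3p CDC25A, E2F1 and MKI67 were called higher and KIF20A lower, and with miR-874-3p none was called although 39 of 44 points lay below 0.

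The second comparison was of NC with miR-210-3p, a miRNA known for its rise in hypoxia. Of the 44 members, 4 were called (9.09%, against 6.06% of all genes tested), 3 of them higher (against 3.85%) and 1 lower (against 2.21%). The higher genes were CDC25A, E2F1 and MKI67 and the lower gene was KIF20A. The median difference was 0.09, against 0.05 over all genes, and both miR-210-3p arrays lay above both NC arrays in 22 members (against 37.4% of all genes) and below both in 6 (against 24.1%). The counts of calls and the median of the whole list were thus close to those of all genes, and the differences lay in named genes. With 1 array of miR-210-3p, NC or miR-629-3p left out of the fit, the 4 calls were lost, and fewer of all genes were called as well. Over all alternatives the differences stayed at 0.50 to 0.62 for CDC25A, 0.37 to 0.47 for E2F1, 0.32 to 0.40 for MKI67 and -0.46 to -0.35 for KIF20A.

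The genes of S phase entry stood highest, with all 5 fitted above 0 and both miR-210-3p arrays above both NC arrays in each. Of all 21285 genes tested, 12255 were fitted above 0, and in 37.4% both miR-210-3p arrays lay above both NC arrays. CDC25A was at 3.02 and 2.91 with NC and at 3.57 and 3.48 with miR-210-3p, a difference of 0.56 ± 0.11 (adjusted p = 0.0498). E2F1 was at 2.71 and 2.65 with NC and at 3.15 and 3.05 with miR-210-3p (0.42 ± 0.08, adjusted p = 0.0451). Both miR-210-3p arrays were the highest of the 8 for these genes, and the call of CDC25A was barely past the threshold. CCNE2 was at 2.02 and 2.35 with NC and at 2.65 and 2.78 with miR-210-3p (0.53 ± 0.14, adjusted p = 0.0797), wider in its NC arrays and not called. E2F2 was at 0.16 and CCND1 at 0.12. Of the 12 replication genes none was called by limma (1, TYMS, was higher at an unadjusted p under 0.05, against 16.5% of all genes), and their differences ran from -0.20 for MCM5 to 0.28 for TYMS (adjusted p = 0.0843), with a median of 0.04.

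Among the 27 G2 and mitosis genes, MKI67 rose and KIF20A fell. MKI67 was at 3.67 and 3.71 with NC and at 4.05 and 4.06 with miR-210-3p (0.37 ± 0.07, adjusted p = 0.0413). KIF20A was at 3.38 and 3.49 with NC and at 2.98 and 3.08 with miR-210-3p (-0.41 ± 0.08, adjusted p = 0.0437). No array of the 2 groups overlapped in either gene. KIF20A lay below NC in each of the 3 comparisons which share the NC arrays, at -0.51 for miR-629-3p, at -0.41 for miR-210-3p and, not called, at -0.32 for miR-874-3p (adjusted p = 0.145). PLK1, the polo-like kinase, was at -0.39, -0.35 and -0.42 in the same order, and it did not pass in any (adjusted p = 0.0954, 0.163 and 0.210). Its NC arrays were at 2.62 and 2.38 and the 6 mimic arrays ranged from 1.98 to 2.25, with no overlap.

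Genes of cell division that earlier work names as targets of miR-210-3p were read in the same comparison, and none of the 6 was called. PLK1 was at 2.62 and 2.38 with NC, above its miR-210-3p arrays at 2.13 and 2.17 (-0.35 ± 0.13). CDC25B was at 4.05 and 3.94 with NC, above its miR-210-3p arrays at 3.81 and 3.64 (-0.27 ± 0.23, adjusted p = 0.507). In both genes the groups did not overlap, but the difference did not pass. BUB1B, a kinase-like protein of the spindle checkpoint, was at 0.18 ± 0.09 (adjusted p = 0.278), and E2F3 was at 0.18 ± 0.09 (adjusted p = 0.260). CCNF (cyclin F) was at -0.03 ± 0.11 and FAM83D, a spindle protein, at 0.04 ± 0.06, and the sign of these last values turned with other normalizations of the arrays.

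The third comparison was of miR-874-3p with NC, within slide row 2 but in different columns of it. No member was called by limma at an adjusted p under 0.05, where 0.423% of all genes tested, 90 genes in all, were called (0.216% higher and 0.207% lower). At an unadjusted p under 0.05, 0 members were higher (against 7.86% of all genes) and 20 were lower (against 8.52%), namely 19 G2 and mitosis genes and the replication gene MCM7. The fitted difference was below 0 in 39 members (against 51.2% of all genes), and both miR-874-3p arrays lay below both NC arrays in 32 (against 23.2%) and above both in 0 (against 20.4%). The median was -0.22, against -0.01 over all genes tested. With other settings of the test, 3 members (normexp background correction) or 5 (a variance trend in limma) were called. These settings also called more of all 21285 genes, 332 with normexp and 495 with the trend, against 90 in the main fit.

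The 3 lowest adjusted p values, none of them past the threshold, were those of CENPF, CDC25C and CENPE. CENPF was at 6.70 and 6.76 with NC and at 6.28 and 6.26 with miR-874-3p (-0.46 ± 0.07, adjusted p = 0.0783). CDC25C was at 2.25 and 2.29 with NC and at 1.89 and 1.87 with miR-874-3p (-0.39 ± 0.06, adjusted p = 0.0838). CENPE was at 2.98 and 3.07 with NC and at 2.65 and 2.66 with miR-874-3p (-0.37 ± 0.07, adjusted p = 0.0975). In these 3 genes the replicates were close and the groups did not overlap. The largest fitted difference, -0.89 ± 0.23 for CDC25B (adjusted p = 0.159), rested on unlike replicates of 2.77 and 3.44, both below the 6 other arrays (3.64 to 4.19). Of the replication genes, MCM7 was at -0.31 ± 0.08 (adjusted p = 0.160) and RRM2 at -0.32 ± 0.15 (adjusted p = 0.358), the latter with replicates of 2.15 and 1.77. In S phase entry the differences were small, from -0.13 for CCNE2 to 0.14 for CDC25A. The 5 members fitted above 0 were CDC25A and, by at most 0.05, BIRC5, MAD2L1, E2F2 and MCM3.

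**Figure D5:**
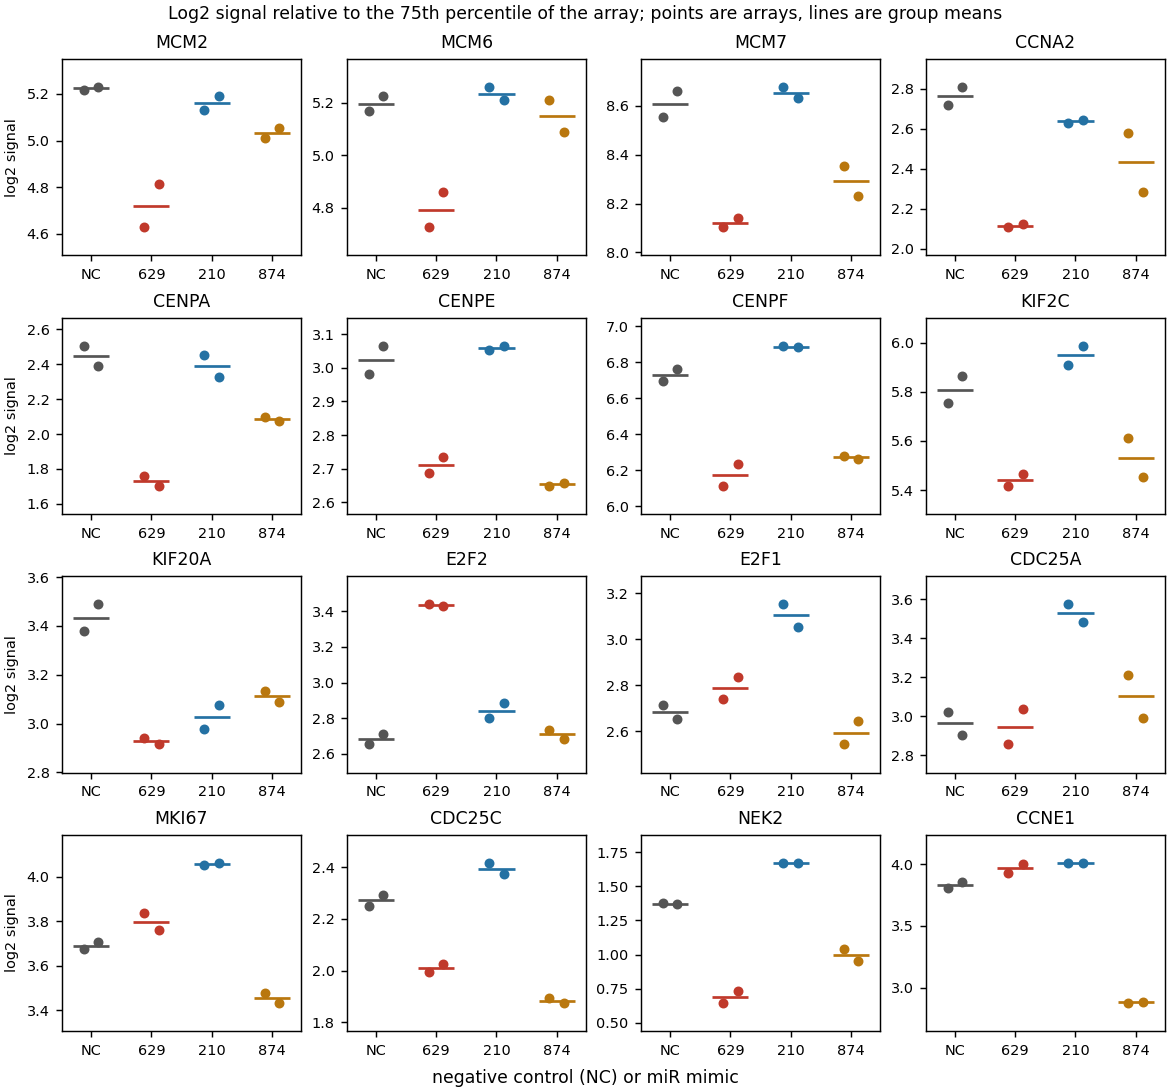
Log2 signal relative to the 75th percentile of the array (vertical axis, 1 panel for each gene) on the 2 arrays of each of the 4 groups, with lines at the group means. MCM2, MCM6, MCM7, CCNA2 and CENPA lay lowest with miR-629-3p, E2F1, CDC25A and MKI67 highest with miR-210-3p, and CCNE1 (cyclin E1, no member) at 2.87 and 2.88 with miR-874-3p.

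The mimics were then compared directly, since a call against NC for one and not for another does not show that they differ. Between miR-629-3p and miR-210-3p, which share slide row 1, 22 of 44 members were called (against 22.6% of all genes tested), 21 of them lower with miR-629-3p (against 12.7%) and 1, E2F2, higher (against 9.83%). The median difference was -0.34, against -0.02 over all genes. The genes called lower were 5 of replication (MCM2, MCM6, MCM7, RRM1 and TYMS), 3 of S phase entry (CCNE2, CDC25A and E2F1) and 13 of G2 and mitosis. The largest was CENPF, at 6.11 and 6.23 with miR-629-3p and 6.89 and 6.88 with miR-210-3p (-0.71 ± 0.07, adjusted p = 0.00511). MAD2L1 was at 3.05 on both miR-629-3p arrays and at 3.71 and 3.68 on the miR-210-3p arrays (-0.65 ± 0.13, adjusted p = 0.0241), although it was called in neither comparison with NC. Among the other mitosis genes, AURKB, TPX2, TOP2A, CDK1 and BUB1B were likewise called between the mimics alone, with differences from -0.39 to -0.49. These genes lay somewhat lower than NC with the one mimic and somewhat higher with the other, with no overlap between the mimics. The groups lay in different columns of the slide row, which cannot be told apart from the mimics. Most of these calls were lost without an array of miR-629-3p or miR-210-3p. Counts over all genes in those fits are not given, so the loss is no result about the members.

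Between miR-210-3p and miR-874-3p, 12 members were called (27.3%, against 9.80% of all genes tested) and all 12 were higher with miR-210-3p (against 6.33%) and 0 lower (against 3.47%). These groups lay in different slide rows and columns, which cannot be told apart from the mimics. The genes were TYMS and MCM7 of replication, CCNE2 and E2F1 of S phase entry, and CENPE, KIF2C, BUB1B, CDC25C, KIF11, BUB1, MKI67 and CENPF. MKI67 was at 4.05 and 4.06 with miR-210-3p and at 3.48 and 3.43 with miR-874-3p (0.60 ± 0.07, adjusted p = 0.0111). KIF11, the motor that pushes the spindle poles apart, was at 4.44 and 4.42 with miR-210-3p and at 3.88 and 3.96 with miR-874-3p (0.51 ± 0.07, adjusted p = 0.0197). The miR-874-3p arrays were the lowest of the 8 for both genes. The median difference over the members was 0.29, against 0.05 over all genes. Fewer members were called without an array of miR-210-3p, miR-629-3p or NC, or without miR-874-3p replicate 2. As counts over all genes in those fits are not given, this is no result about the members.

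Between miR-629-3p and miR-874-3p, both of which lay below NC, 5 members were called (11.4%, against 16.2% of all genes tested), 3 of them higher with miR-629-3p (against 9.34%) and 2 lower (against 6.88%), and the median difference was -0.04. MCM6 was at 4.73 and 4.86 with miR-629-3p and at 5.21 and 5.09 with miR-874-3p (-0.36 ± 0.08, adjusted p = 0.0424), and CENPA at 1.76 and 1.70 against 2.10 and 2.08 (-0.35 ± 0.08, adjusted p = 0.0403). E2F2 (0.72 ± 0.07, adjusted p = 0.00546), MKI67 (0.34 ± 0.07, adjusted p = 0.0264) and CDC25B (0.99 ± 0.23, adjusted p = 0.0389) were higher with miR-629-3p. For CENPE, CDK1 and BUB1B the differences between these mimics were 0.06, 0.01 and 0.06, with 95% intervals of -0.11 to 0.23, -0.22 to 0.24 and -0.16 to 0.28, which do not show that the mimics act alike. Fewer members were called without an array of miR-629-3p, miR-210-3p or NC, or without miR-874-3p replicate 1. Here too, counts over all genes in those fits are not given, and this is no result about the members.

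Across the 4 groups, the F test of limma called 22 of 44 members (against 25.2% of all genes tested), namely 4 of 12 replication genes, 4 of 5 S phase entry genes and 14 of 27 G2 and mitosis genes. The group mean was highest with miR-210-3p in 29 members (against 32.9% of all genes). It was lowest with miR-629-3p in 25 (against 29.9%) and lowest with miR-874-3p in 17 (against 24.1%). The mean of miR-629-3p was the lowest in 10 of 12 replication genes and that of miR-874-3p in 1, whereas in the G2 and mitosis genes they were the lowest in 14 and 13 of 27, respectively. The order of neighbouring means was often within the replicate error, as for PCNA, TTK or NUSAP1, which did not pass the F test (adjusted p = 0.203, 0.0902 and 0.0998). The F test called fewer members without an array of miR-629-3p, miR-210-3p or NC. Its counts over all genes in those fits are not given, so this is no result about the members.

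Among probes that passed the filter on detection, most members had 1, but 10 had several, and the brightest was used above. When every probe that passed was fitted, probes of the same gene disagreed in call or direction for a few members. CDK1 had a dim probe (chr10:62546632-62546691, hg19) annotated to another transcript than the bright one (chr10:62552004-62553650, hg19). The dim probe was at -2.02 and -1.99 with NC, at -2.78 and -2.97 with miR-629-3p and at -1.24 and -1.43 on the miR-210-3p arrays. It was called lower with miR-629-3p (-0.87 ± 0.11, adjusted p = 0.0105) and higher with miR-210-3p (0.67 ± 0.11, adjusted p = 0.0335), whereas the bright probe was called in neither (-0.26 and 0.13). A dim probe of CCNE2 was called higher with miR-210-3p (0.89 ± 0.15, adjusted p = 0.0342) beside 0.53 for the bright one, and with miR-629-3p they differed in direction (0.41 and -0.09), neither being called. The 3 probes of MKI67 were at 0.37, 0.27 and 0.11 with miR-210-3p and at -0.23, -0.51 and -0.24 with miR-874-3p, all on the same side. With miR-629-3p they were at 0.11, -0.09 and 0.06. The second probe of PLK1 was near 0 against NC with every mimic, at -0.08, 0.08 and -0.04, where the bright probe was at -0.39, -0.35 and -0.42. Both probes of CENPF were called lower with miR-629-3p (-0.56 and -0.41). The second probe of MCM7 was at -0.50 beside -0.49 but was not called (adjusted p = 0.0603). The probes of CCNB1 were at -0.29 and 0.02 with miR-629-3p, neither called, and those of MCM5, PCNA and KIF23 were uncalled and lay on 1 side with miR-629-3p and with miR-874-3p.

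A further list of 115 cell cycle genes, written from general knowledge of the pathway, was read beside the members, and 114 of them were tested (E2F5 was not above background as the filter required). With miR-629-3p, 29 were called (25.4%, against 16.8% of all genes), 21 lower (18.4%, against 7.47%) and 8 higher (7.02%, against 9.28%, thus below the share of all genes), with a median difference of -0.16. Large falls among them were those of NEK2 (-0.68 ± 0.07, adjusted p = 0.00641), ORC3 (-0.67 ± 0.09, adjusted p = 0.0107), RBL1 (-0.67 ± 0.15, adjusted p = 0.0353) and RFC5 (-0.63 ± 0.08, adjusted p = 0.0114). NEK2 is a kinase of the centrosome, ORC3 is part of the origin recognition complex, RBL1 is the retinoblastoma relative p107 and RFC5 helps load the clamp PCNA. NEK2 was at 1.37 on both NC arrays and at 0.64 and 0.73 with miR-629-3p, and the miR-629-3p arrays of all of these genes lay below both NC arrays. Among the 8 called higher, the largest differences were those of LIN52 (0.74 ± 0.09, adjusted p = 0.00817), a subunit of DREAM, NCAPH, a subunit of condensin, CCND3 (0.68 ± 0.08, adjusted p = 0.00967), which is cyclin D3, E2F7 (0.66 ± 0.09, adjusted p = 0.0107) and E2F6 (0.56 ± 0.08, adjusted p = 0.0117), which are repressors of the E2F family. NCAPH was at -1.64 and -1.90 with miR-629-3p and at -2.43 and -2.50 with NC, but it was well above background on 5 of 8 arrays only, and its difference of 0.70 (adjusted p = 0.0159) was 0.11 and not called (adjusted p = 0.192) with normexp background correction. Over all alternatives, LIN52 ranged from 0.34 to 0.79 and RBL1 from -0.78 to -0.38. The list held 8 inhibitors of cyclin-dependent kinases, of which 2 were called higher (against 9.28% of all genes), CDKN1B and CDKN2D (0.51 and 0.53). CDKN1A (p21) was at 0.79 ± 0.20 (adjusted p = 0.0509). Of the 8 inhibitors, 6 were fitted above 0 and 2 below 0, the lowest at -0.29. Over the comparisons with NC, the 36 calls of this list fell without an array of miR-629-3p, miR-210-3p or NC. They rose without an array of miR-874-3p. The counts over all genes moved the same way for miR-629-3p and miR-210-3p against NC.

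With miR-210-3p, 6 genes of the list were called (5.26%, against 6.06% of all genes, so that the count was not above the background), all higher (against 3.85%), with a median of 0.13 over the list. They were CDK6 (0.66 ± 0.09, adjusted p = 0.0238), the kinase partner of the D-type cyclins, CCND3 (0.61 ± 0.08, adjusted p = 0.0227), CIT (0.56 ± 0.07, adjusted p = 0.0170), a kinase of cytokinesis, SPC24 (0.49 ± 0.07, adjusted p = 0.0263), of the kinetochore, TFDP2 (0.43 ± 0.08, adjusted p = 0.0390), a partner of E2F proteins, and POLA1 (0.32), the catalytic subunit of DNA polymerase alpha. CDK6 was at 4.67 and 4.63 with NC and at 5.32 and 5.29 with miR-210-3p. For miR-874-3p, 1 gene of the list was called (0.877%, against 0.423% of all genes). CCNE1, which is cyclin E1, was at 3.81 and 3.86 with NC and at 2.87 and 2.88 with miR-874-3p, a difference of -0.95 ± 0.07 (1.94-fold lower, adjusted p = 0.0122), and its miR-874-3p arrays were far below the other 6 (3.81 to 4.01). The call was lost in 7 of 20 alternatives (adjusted p up to 0.417), 4 of which left out an array of miR-629-3p or of miR-210-3p, while the difference stayed between -0.98 and -0.86. The paralogue CCNE2, a member, was at -0.13 ± 0.14 in the same comparison (adjusted p = 0.676). The list's median with miR-874-3p was -0.15, and 35 of its genes were lower (against 8.52% of all genes) and 2 higher (against 7.86%) at an unadjusted p under 0.05.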

How the data were processed

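Whole-transcriptome expression was read on 1-colour Agilent SurePrint G3 Human GE v3 arrays, 1 for each of the 8 samples, all on 1 slide. Per the submitters' processing notes the scans were read with Agilent Feature Extraction 11.5.1.1. The intensity values deposited for each array are spot signals from which the scanner software had taken the background and spatial trend, without normalization between arrays. A deposited table of log2 values served as an alternative. After an offset of -0.05 to 0.004 for the array, at least 99.957% of its probes lay within 0.05 of the values computed here.

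Outlier spots (87 to 346 of 60901 per array) were dropped, log2 processed signals were averaged over the spots of a probe, and the array's 75th percentile was subtracted. Probes with values on every array and a signal well above background on both arrays of some group were retained, and each gene name was represented by its brightest probe, giving 21285 genes. Groups came from the labels. They were compared with limma 3.58.1 in R 4.3.3 (lmFit and eBayes on all 8 arrays, no covariates, 4 residual and 1.68 prior degrees of freedom) with Benjamini-Hochberg adjustment over all genes, and the fit was tested on simulated data. The number of arrays, 2 a group, limits the precision of every value. Errors are standard errors of the fit.

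The members and lists were chosen with earlier results of these data known. Genes given in full are the members called against NC, the member of each role with the largest change in each direction, up to 5 genes a direction from the further cell cycle list (1 of which is not reported here), the 6 genes reported as miR-210-3p targets, and probes that disagree. Other genes, and those given between mimics, were picked after their values were seen. Alternatives in background correction, scaling, filter, probe choice, test, replicate block and arrays used were run, with their effect in the closing section. Motifs were searched in RefSeq promoters of GRCh38.p14.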

Additional observations from a re-analysis of the deposited data

Results flagged for a closer look

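For 9 pairs of a member and 2 mimics, the mimics lay on opposite sides of NC, at least 1 of them was called against NC, and the direct test between the mimics was called (limma). The fitted differences on the log2 scale between miR-629-3p and miR-210-3p, which share a slide row, were -0.58 for CDC25A, -0.38 for CDC25C, -0.35 for CENPE, -0.71 for CENPF, -0.51 for KIF2C, -0.44 for MCM6 and -0.53 for MCM7. Those that set miR-210-3p against miR-874-3p were 0.51 for E2F1 and 0.60 for MKI67. All 9 differences had no overlap between the arrays of the mimics. The pairs were chosen for a called difference, so this adds no evidence of its own. Of all 21285 genes tested, the arrays overlapped in 6339 when miR-629-3p was set against miR-210-3p. When miR-210-3p was set against miR-874-3p, they overlapped in 8968 of all genes, so a lack of overlap was common. For CENPE, MCM6 and MCM7 the differences of miR-210-3p from NC were 0.03, 0.04 and 0.05, within their errors of 0.07, 0.08 and 0.08. For CDC25A the difference of miR-629-3p from NC was -0.02 with an error of 0.11. In these 4 genes the opposite side thus rests on values near 0. For E2F1 the difference of miR-874-3p from NC was -0.09, about the size of its error of 0.08, and was not called.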

How the results depend on the processing

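Of the 15 calls of members against NC, none turned direction under any alternative. All 15 were kept with normexp background correction, a signal floor, genes detected on all 8 arrays, a variance trend in limma, and without either miR-874-3p array. The deposited value table kept 11, fits of only the 2 groups compared kept 6, and the methods' t-test after adjustment kept 0. Of all 21285 genes, that t-test called 0 for miR-629-3p, 1 for miR-210-3p and 0 for miR-874-3p against NC. Its 0 is therefore no result about the members. When an array of NC, miR-210-3p or miR-629-3p was left out, most of the 15 calls were lost. Fewer of all genes were then called as well for miR-629-3p and for miR-210-3p against NC. A lone array was then taken to be as variable as the rest. Calls were lost also when the array left out had no part in the comparison, and the fitted differences moved little, such as -0.77 to -0.60 for CENPA and -0.69 to -0.56 for CCNA2 over all alternatives.

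For miR-629-3p against NC, 11 members were called, and 18 with normexp, 22 with a variance trend, 6 with only the groups compared and 0 with the t-test. Of all 21285 genes, 3566 were called, and 4578, 4844, 2407 and 0 with these settings, respectively. The counts of members and of all genes fell without an array of miR-629-3p, NC or miR-210-3p, and rose without one of miR-874-3p. For miR-210-3p against NC, 4 were called, and 2 with quantile normalization and 1 with centring on the median of kept probes. None was called without a filter, with only the groups compared or with the t-test. Of all genes, 1290 were called, and 1258, 1267, 46 (of 42661), 176 and 1 with these settings, respectively. The 4 calls were lost without any array of NC, miR-629-3p or miR-210-3p, where fewer of all genes were called as well. For miR-874-3p against NC, 0 were called, and 3 with normexp and 5 with the trend. Of all 21285 genes, 90 were called, and 332 and 495 with these settings, respectively. The count of members hardly changed with 1 array left out. Between miR-629-3p and miR-210-3p, 22 were called, and 3 without a filter, 5 with the t-test and 1 to 28 with 1 array left out. For miR-629-3p against miR-874-3p, 5 were called, and 9 with normexp, 10 with the trend, 3 without a filter, 0 with only the groups compared or the t-test, and 1 to 5 with 1 array left out. For miR-210-3p against miR-874-3p, 12 were called, and 20 with normexp, 22 with the trend, 0 without a filter, with only the groups compared or with the t-test, and 0 to 17 with 1 array left out. The F test called 22, and 6 without a filter, 35 with the trend and 1 to 27 with 1 array left out. Of the further cell cycle genes, 36 were called over the 3 comparisons with NC, and 68 with normexp, 57 when detected on all 8 arrays, 16 with only the groups compared, 76 with the trend, 0 with the t-test and 2 to 53 with 1 array left out. The methods' rule of an unadjusted p with a 2-fold change called 0 members in every comparison and 2 of the further genes. For the comparisons between mimics and the F test, counts over all genes under these alternatives are not given. The changes in their counts are therefore no result about the members. For the further genes, the counts over all genes against NC also rose with normexp and the trend and fell with only the groups compared.

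The replicate numbers did not pair the samples (correlations of same-numbered deviations from -0.11 to 0.03). With the replicate block, the counts were 7 for miR-629-3p and 0 for miR-210-3p against NC. They were 1 and 4 for these mimics against miR-874-3p, 5 in the F test and 13 further genes. Of all 21285 genes, the block called 2046 for miR-629-3p and 492 for miR-210-3p against NC, where the main fit called 3566 and 1290. The lower counts are therefore no result about the members.

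The median of the members for miR-629-3p against NC (-0.26) was -0.22 with normexp, -0.21 with quantile normalization and -0.21 with the deposited table, and -0.28 to -0.23 with 1 array left out. For miR-210-3p (0.09) it was 0.046 with centring and 0.08 to 0.11 with 1 array left out. For miR-874-3p (-0.22) it was -0.18 with normexp and -0.25 to -0.18 with 1 array left out. The difference of miR-210-3p from NC turned direction for CCNF with the deposited table (0.0058) and for FAM83D with quantile normalization (-0.018) and centring (-0.0065). Without the filter, the median of all genes against NC shifted to -0.17 for miR-629-3p, -0.11 for miR-210-3p and -0.09 for miR-874-3p.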
